A study of Mus musculus with 16 samples.

Results

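The cell cycle and mitosis genes were 46 mouse genes named by symbol: 13 of mitotic entry and exit, 10 of the kinetochore and spindle checkpoint, 8 of DNA replication, 4 of nucleotide supply and 11 of G1 control. Of these, 40 were analysed among the 13430 genes of the table. The other 6 (Cdk1, Bub1, Nuf2, Ndc80, Aurkb and Ccne1) were not analysed here. Kidneys came from 16 female C57BL/6 mice aged 2 to 3 months, 4 per group. The groups were IRR-/- mice given sodium bicarbonate, IRR-/- mice on water, wild-type mice given sodium bicarbonate and wild-type mice on water. Bicarbonate was present at 250 mM and pH 8.5 in the drink for 7 days, and all mice, controls included, fasted for 12 h with their drink at hand before sampling. A 3 mm slice through the middle of the kidney was sequenced, so each library mixed all cell types of that slice. Insrr encodes IRR, a relative of the insulin receptor that senses alkaline pH outside the cell and signals as a tyrosine kinase. The labels give neither the deleted part of the gene nor a cell type for the deletion.

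In a dividing cell, D-type cyclins with CDK4 and CDK6, and then CDK2, inactivate the retinoblastoma protein and free E2F factors, which switch on the replication genes. CDK inhibitors such as the product of Cdkn1b hold this step back. Later, mitotic genes rise together through a promoter element called the cell-cycle homology region, and the kinetochore, to which SPC24, SPC25 and KNSTRN (small kinetochore-associated protein) belong, ties chromosomes to the spindle. In the adult kidney most tubule cells are at rest, and tubule cells re-enter the cycle after injury.

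All values are RPKM (reads scaled to transcript length and library size) as deposited, and levels are compared between genes on that per-length scale. The depth of the libraries is unknown, as is how library size was set. The median gene stood between 8.44 and 8.92 RPKM in every library. The summed RPKM was 2415152 to 2927108 in IRR-/- libraries and 1358770 to 1602927 in wild-type libraries. The 13 mitochondrially encoded genes took 82.6 to 84.9% of the summed RPKM in the 8 IRR-/- libraries and 69.6 to 74.2% in the 8 wild-type libraries. Insrr stood at 3.31 to 4.11 RPKM in IRR-/- libraries and at 4.20 to 6.73 RPKM in wild-type libraries. On the second principal component replicate 3 of the wild-type bicarbonate group lay far from the rest, and its Kap, a proximal tubule gene, was at 742 RPKM where every other library had at least 5998 RPKM. Replicate 4 of the same group and IRR-/- water replicate 4 had the highest mitotic gene sums.

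Most of the 40 genes were scarce. The median of their mean levels was 2.26 RPKM, against 8.90 RPKM over all genes of the table. There were 12 genes with a mean under 1 RPKM, 18 between 1 and 10 RPKM and 10 of at least 10 RPKM. The 5 genes of at least 25 RPKM were Ccnd1, Ccnd3 and Cdk4 of G1 control, the DNA polymerase clamp Pcna, and Spc25. The filter for testing, 0.5 RPKM in at least 4 of the 16 libraries, set aside Mcm5 and Plk1 and left 38 of the 40 genes.

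**Figure D1:**
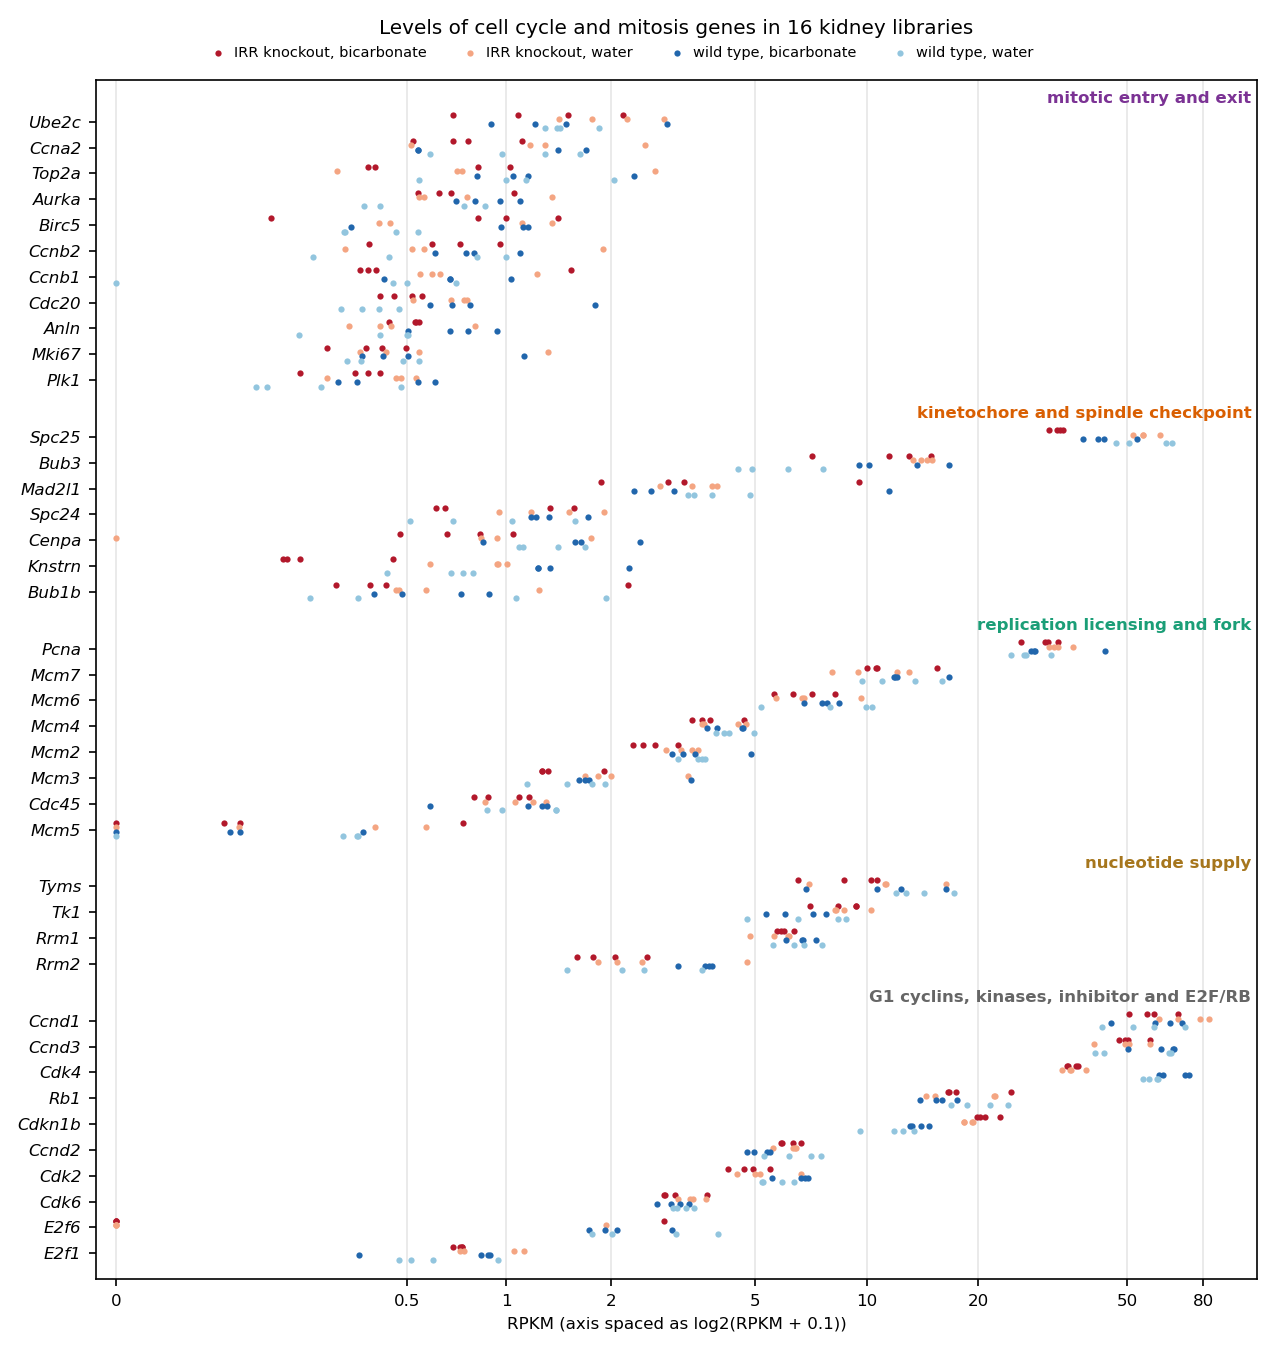
RPKM of each of the 40 analysed genes (rows, grouped by role and ordered by mean) in each of the 16 libraries (points, coloured by group), on an axis spaced as log2(RPKM + 0.1). The 11 genes of mitotic entry and exit stay at or below 2.85 RPKM in all libraries, while Spc25 is never below 31.0 RPKM.

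Spc25 and Knstrn belong to the same structure but lay far apart in level. Spc25, a subunit of the NDC80 complex that contacts microtubules, averaged 47.3 RPKM over the 16 libraries, above 87.0% of all genes. This was 29.0 times the highest mean among the genes of mitotic entry and exit, and 39.7 times that of Spc24, its partner subunit, at 1.19 RPKM. Knstrn, which binds astrin at the spindle, averaged 0.827 RPKM, in the range of the mitotic genes.

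The genes that work beside them in the kinetochore were likewise spread over levels. From a list of 15 further kinetochore genes, 13 were analysed and 11 tested. Dynll1, a dynein light chain with many uses outside mitosis, averaged 70.5 RPKM and Zwint, which binds the KNL1 scaffold, 62.7 RPKM. Knl1, the scaffold itself, averaged 0.168 RPKM (named after its value was seen). High and low levels were thus found side by side among genes of this structure.

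Spc25 lies at chr2:69193895-69206194 on the minus strand and Knstrn at chr2:118814003-118853957 on the plus strand (GRCm38). The promoter windows of these genes are shown because the mitotic genes are known to share promoter elements. Each window is 300 bases, 250 before to 50 after the annotated start, from RefSeq (GRCm38.p6). Capitals mark matches, on either strand, to the cell-cycle homology region (TTTGAA or TTCGAA), the CCAAT box (CCAAT) and E2F sites (TTTCCCGC, TTTGGCGC, TTTCGCGC or TTTGCCGC). Windows were found for 34 of the 40 genes, and the first one listed was used where a gene had several. The windows of Spc25 (chr2:69206164-69206463, minus strand), Knstrn (chr2:118813753-118814052, plus strand), Top2a (chr11:99024140-99024439, minus strand) and Mki67 (chr7:135716330-135716629, minus strand) read as follows.
Spc25: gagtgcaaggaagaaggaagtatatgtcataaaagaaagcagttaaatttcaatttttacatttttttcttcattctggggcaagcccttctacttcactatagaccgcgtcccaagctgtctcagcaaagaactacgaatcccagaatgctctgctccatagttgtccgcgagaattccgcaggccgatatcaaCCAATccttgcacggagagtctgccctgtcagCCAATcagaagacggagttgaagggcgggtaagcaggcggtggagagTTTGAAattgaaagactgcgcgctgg
Knstrn: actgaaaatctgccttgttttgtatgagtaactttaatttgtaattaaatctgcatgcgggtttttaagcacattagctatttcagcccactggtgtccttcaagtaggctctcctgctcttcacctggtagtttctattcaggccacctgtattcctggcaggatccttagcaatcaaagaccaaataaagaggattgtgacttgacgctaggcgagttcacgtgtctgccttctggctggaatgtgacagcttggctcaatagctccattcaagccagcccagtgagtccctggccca
Top2a: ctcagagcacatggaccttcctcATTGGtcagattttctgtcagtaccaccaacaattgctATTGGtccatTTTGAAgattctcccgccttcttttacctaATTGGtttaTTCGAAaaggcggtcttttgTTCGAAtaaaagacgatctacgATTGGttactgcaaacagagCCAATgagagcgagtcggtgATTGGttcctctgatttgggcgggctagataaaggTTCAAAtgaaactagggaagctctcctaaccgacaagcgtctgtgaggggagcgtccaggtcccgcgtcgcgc
Mki67: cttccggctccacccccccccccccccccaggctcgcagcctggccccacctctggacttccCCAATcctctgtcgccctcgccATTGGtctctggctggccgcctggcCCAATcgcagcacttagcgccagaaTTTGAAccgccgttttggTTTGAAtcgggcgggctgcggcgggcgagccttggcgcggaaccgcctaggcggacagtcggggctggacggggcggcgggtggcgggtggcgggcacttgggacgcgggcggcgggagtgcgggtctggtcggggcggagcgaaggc

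The Spc25 window held 1 cell-cycle homology match, downstream of 2 CCAAT boxes. The Knstrn window held no match to any of the 3 elements. Top2a, the topoisomerase that untangles replicated chromosomes, had 4 homology matches and 6 CCAAT boxes, and Mki67, the source of the Ki-67 antigen, had 2 and 3. Homology matches were present in 8 of 10 windows of mitotic entry and exit genes (80%) and in 4 of 6 kinetochore windows (66.7%), against 13.8% of 10536 windows of genes in the table and 19.4% of all 27025 windows. CCAAT boxes were present in 80% and 66.7% of the windows of these roles, against 38.2% of windows of genes in the table. These are matches of letters in a short window, and they say nothing of binding in these kidneys.

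Spc25 was lower in IRR-/- kidneys on bicarbonate than on water. Its levels were 32.5, 31.0, 33.7 and 33.1 RPKM in IRR-/- mice on bicarbonate, against 61.2, 55.3, 55.0 and 51.8 RPKM in IRR-/- mice on water. The groups did not overlap, and the IRR-/- bicarbonate libraries lay within 3 RPKM of each other. Spc25 fell by 0.77 ± 0.11 on the log2(RPKM + 0.1) scale (SE, limma adjusted p = 0.0258), which is 0.585 times the level on water. It was the only one of the 38 tested genes called in this comparison, in which 0.0232% of all genes tested (3 of 12943) passed, 0.00773% higher and 0.0155% lower on bicarbonate. The log2 difference lay between -0.81 and -0.72 in 17 alternative settings, but the call was lost in 10 of them. Leaving out any 1 of IRR-/- water replicates 1, 2 or 3 or IRR-/- bicarbonate replicates 1, 2, 3 or 4 gave adjusted p-values of 0.162, 0.0577, 0.0840, 0.124, 0.0941, 0.0944 and 0.0836 in that order.

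In wild-type kidneys Spc25 stood at 43.3, 41.8, 38.0 and 53.1 RPKM on bicarbonate, against 50.6, 46.9, 63.4 and 65.8 RPKM on water. These groups overlapped, and the log2 difference of -0.36 ± 0.11 did not pass (adjusted p = 0.209). The 2 genotypes' responses differed by -0.41 ± 0.16 on the log2 scale in the interaction test, which did not pass either (adjusted p = 0.551), so a difference in response between genotypes was not shown. Between genotypes, Spc25 was lower in IRR-/- than in wild-type kidneys on bicarbonate, by a log2 difference of -0.42 ± 0.11 (adjusted p = 0.0172) with no overlap. That call was lost without wild-type bicarbonate replicate 4 (-0.33, adjusted p = 0.0517) and after removal of the trend on transcript length and GC content (-0.28, adjusted p = 0.142). On water the log2 difference between genotypes was -0.01 ± 0.11, with a 95% interval of -0.25 to 0.23.

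Knstrn was lowest in IRR-/- kidneys on bicarbonate and highest in wild-type kidneys on bicarbonate. Its levels were 0.210, 0.448, 0.185 and 0.178 RPKM in IRR-/- mice on bicarbonate and 0.589, 0.941, 0.945 and 1.005 RPKM in IRR-/- mice on water. Wild-type mice had 1.24, 1.24, 1.34 and 2.25 RPKM on bicarbonate and 0.686, 0.800, 0.430 and 0.746 RPKM on water. All 4 IRR-/- bicarbonate libraries were below all 4 on water, and all 4 wild-type bicarbonate libraries were above all 4 on water. On bicarbonate the genotypes differed by -2.20 ± 0.28 on the log2 scale (adjusted p = 9.55e-05), or 0.217 times the wild-type level on the scale with 0.1 RPKM added. This call was kept in all 17 alternatives, although a pseudocount of 1 RPKM shrank the log2 difference to -0.99. It held without wild-type bicarbonate replicate 4, the highest library (-2.01, adjusted p = 4.36e-04), and without wild-type bicarbonate replicate 3. On water the log2 difference was 0.35 ± 0.28 (adjusted p = 0.420).

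The response of Knstrn to bicarbonate passed in neither genotype, at -1.48 ± 0.28 in IRR-/- mice (adjusted p = 0.152) and 1.06 ± 0.28 in wild-type mice (adjusted p = 0.134). The test of the difference between these responses gave -2.55 ± 0.40, with an unadjusted p of 1.21e-05 and an adjusted p of 0.0520, just above the threshold. It passed in 6 of 24 alternatives, among them 0.0392 with no filter on low values, 0.0478 with median-of-ratios scaling and 0.0174 without IRR-/- bicarbonate replicate 2. Its largest adjusted p was 0.189, without both wild-type bicarbonate replicate 4 and IRR-/- water replicate 4. At under 1 RPKM in 3 of the 4 group means, Knstrn was scarce, and the number of reads behind it is unknown.

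The genes beside Spc25 and Knstrn on chromosome 2 were read for comparison. Nostrin, 4564 bp from Spc25, had group means of 2.40 RPKM in IRR-/- mice on bicarbonate and 2.49 RPKM on water, and 3.19 RPKM in wild-type mice on bicarbonate and 3.49 RPKM on water. Its log2 difference after bicarbonate in IRR-/- mice was -0.01 ± 0.24, so it did not follow Spc25 in that comparison. Between genotypes the Nostrin means were lower in IRR-/- mice on both drinks, with overlapping libraries. Spc25 was also lower in IRR-/- mice on bicarbonate. Ivd, 7996 bp from Knstrn and a mitochondrial enzyme of leucine breakdown, was lower in IRR-/- kidneys on both drinks, by log2 differences of -0.59 ± 0.14 on bicarbonate (adjusted p = 0.00749) and -1.02 ± 0.14 on water (adjusted p = 1.00e-04). Knstrn differed on bicarbonate only by the test within each drink. An annotated antisense gene, Gm14091, overlaps Knstrn and was not analysed here. No source used here states whether reads were counted by strand.

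**Figure D2:**
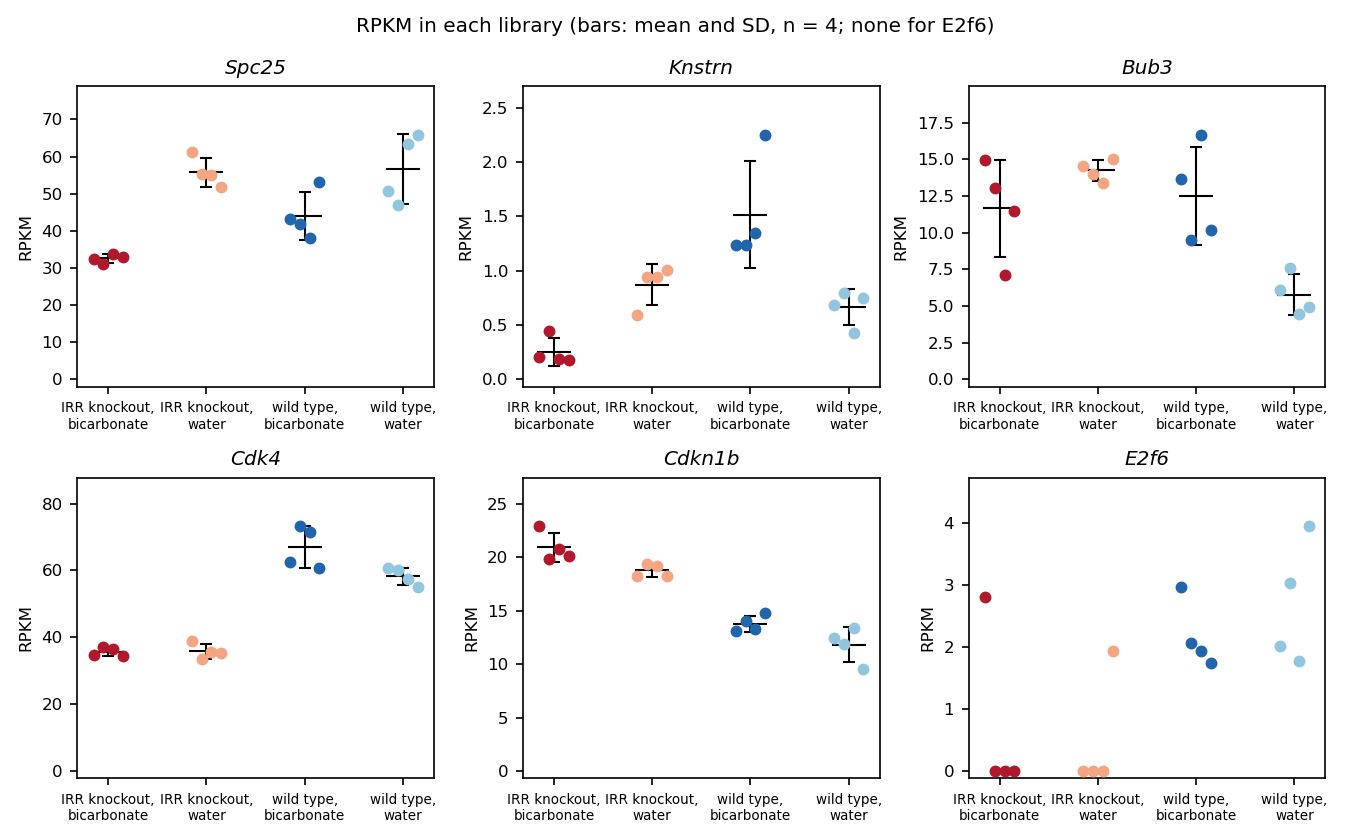
RPKM in each library (points) with mean and SD (bars, n = 4) for Spc25, Knstrn, Bub3, Cdk4 and Cdkn1b, and points alone for E2f6, in the groups named on the x axis. Spc25 lies at 31.0 to 33.7 RPKM in IRR-/- mice on bicarbonate, and Cdk4 separates the genotypes on both drinks.

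Bub3, a spindle checkpoint protein with further roles in interphase, was higher in IRR-/- than in wild-type kidneys on water. Its levels were 14.6, 14.0, 13.4 and 15.02 RPKM in IRR-/- mice on water, against 6.12, 7.62, 4.47 and 4.90 RPKM in wild-type mice on water. The groups were far apart, with a log2 difference of 1.32 ± 0.22 (adjusted p = 7.20e-04). That call was kept in all 17 alternatives. On bicarbonate the levels were 14.9, 13.0, 7.14 and 11.5 RPKM in IRR-/- mice, against 13.7, 9.53, 16.7 and 10.1 RPKM in wild-type mice, which overlapped (log2 difference -0.11 ± 0.22, adjusted p = 0.772). That small difference turned to 0.03 without wild-type bicarbonate replicate 3 and to 0.10 without IRR-/- bicarbonate replicate 3.

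The bicarbonate and water levels of Bub3 did not overlap in wild-type mice, with a log2 difference of 1.09 ± 0.22 (adjusted p = 0.0612). It passed without wild-type bicarbonate replicate 4 (1.18, adjusted p = 0.0465). In the other 16 of 17 alternatives it did not pass, with adjusted p-values up to 0.256. In IRR-/- mice the difference was -0.34 ± 0.22 (adjusted p = 0.753), and the interaction of -1.43 ± 0.32 did not pass (adjusted p = 0.420). Bub3 lies at chr7:131560222-131571895 and overlaps Fgfr2 on the opposite strand, whose log2 difference between genotypes on water was -0.01 ± 0.19.

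The other 4 kinetochore genes were Spc24, the centromeric histone gene Cenpa, and the checkpoint genes Mad2l1 and Bub1b, and none was called in any comparison. Mean levels were 1.19 RPKM for Spc24, 4.12 RPKM for Mad2l1 and 0.759 RPKM for Bub1b. Cenpa was listed at 0 in 1 library, IRR-/- water replicate 2, and ranged up to 2.41 RPKM. Single libraries dominated some groups: Mad2l1 was 9.54 RPKM in IRR-/- bicarbonate replicate 2, where the other 3 libraries lay at 1.87 to 3.18 RPKM, and 11.5 RPKM in wild-type bicarbonate replicate 1, where the others lay at 2.32 to 2.99 RPKM.

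The genes of mitotic entry and exit, the usual readout of dividing cells, were near the low end in every kidney, and none was called in any comparison. Here 13 genes were named, 11 analysed and 10 tested, and 8 of the 11 averaged under 1 RPKM. Mki67 ranged over 0.266 to 0.496 RPKM in IRR-/- mice on bicarbonate and 0.348 to 1.32 RPKM in IRR-/- mice on water. In wild-type mice it ranged over 0.354 to 1.13 RPKM on bicarbonate and 0.315 to 0.544 RPKM on water. Top2a averaged 0.655 ± 0.327 and 1.10 ± 1.06 RPKM in IRR-/- mice on bicarbonate and on water, and 1.33 ± 0.666 and 1.18 ± 0.624 RPKM in the wild-type groups on bicarbonate and on water (SD, n = 4 each). The groups of both genes overlapped in every comparison. Ube2c, the ubiquitin-conjugating enzyme that works with the anaphase-promoting complex, was the highest of the role at a mean of 1.63 RPKM. Cyclin A2 (Ccna2) averaged 1.08 RPKM, and the B-type cyclins that drive entry into mitosis averaged 0.634 RPKM (Ccnb1, listed at 0 in 1 wild-type water library) and 0.732 RPKM (Ccnb2). The mitotic kinases averaged 0.757 RPKM (Aurka) and 0.366 RPKM (Plk1, not tested), and Birc5, the source of survivin, averaged 0.744 RPKM.

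Summed over the 11 genes, the level was 5.78 to 8.30 RPKM in IRR-/- mice on bicarbonate and 6.58 to 14.9 RPKM in IRR-/- mice on water. It was 7.32 to 15.5 RPKM in wild-type mice on bicarbonate and 4.87 to 8.77 RPKM in wild-type mice on water. The highest sums, 15.5 and 14.9 RPKM, were those of wild-type bicarbonate replicate 4 and IRR-/- water replicate 4. Each of these libraries held the highest value of 4 of the 11 genes. In a bulk sample, fewer cells of a type and less RNA per cell cannot be told apart.

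Cdc20, the activator of the anaphase-promoting complex, came nearest to a call, between genotypes. The log2 difference, IRR-/- minus wild type, was -0.75 ± 0.28 on bicarbonate (adjusted p = 0.0785) and 0.69 ± 0.28 on water (adjusted p = 0.0929). The genotypes did not overlap on either drink, but neither difference passed, nor did the interaction (-1.44 ± 0.40, adjusted p = 0.462). Cdc20 stood at 0.588, 0.688, 0.782 and 1.80 RPKM in wild-type mice on bicarbonate, against 0.300, 0.470, 0.354 and 0.403 RPKM in wild-type mice on water. The groups did not overlap, but the log2 difference of 1.03 ± 0.28 did not pass (adjusted p = 0.153). In IRR-/- mice Cdc20 stood at 0.408 to 0.558 RPKM on bicarbonate, against 0.520 to 0.765 RPKM on water (log2 difference -0.41 ± 0.28, adjusted p = 0.759). Anln, the source of the contractile ring protein anillin, also did not overlap in wild-type mice, at 0.503 to 0.941 RPKM on bicarbonate, against 0.207 to 0.501 RPKM on water (adjusted p = 0.321).

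The median log2 difference of the 10 tested mitotic genes after bicarbonate was -0.37 in IRR-/- mice (1 above 0) and 0.52 in wild-type mice (8 above 0). Over all genes tested these medians were 0.01 and -0.01. IRR-/- minus wild type gave a median of -0.29 on bicarbonate (0 above 0) and 0.39 on water (9 above 0), beside -0.02 and -0.05 over all genes. These comparisons share groups and are not independent of each other. The medians moved when the libraries with the highest sums were left out. Without IRR-/- water replicate 4 the median after bicarbonate in IRR-/- mice was 0.01 (5 above 0), and the genotype median on water was 0.14 (7 above 0). Without wild-type bicarbonate replicate 4 the median after bicarbonate in wild-type mice was 0.40 (7 above 0), and the genotype median on bicarbonate was -0.14 (1 above 0).

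Markers of blood cells moved with some of these groups. The sum of 5 erythroid markers, all analysed and none at 0 in all libraries, was 234 to 612 RPKM in IRR-/- mice on bicarbonate and 373 to 2068 RPKM in IRR-/- mice on water. It was 811 to 1550 RPKM in wild-type mice on bicarbonate and 501 to 1572 RPKM in wild-type mice on water. IRR-/- water replicate 4 had the highest erythroid sum, whereas wild-type bicarbonate replicate 4 had 910 RPKM. On bicarbonate, 2 of the 5 erythroid markers (40%) were lower in IRR-/- than in wild-type kidneys by the test, beside 18.4% of all genes called, and the differences of all 5 were below 0. The part of blood RNA in the mitotic values was not tested.

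**Figure D3:**
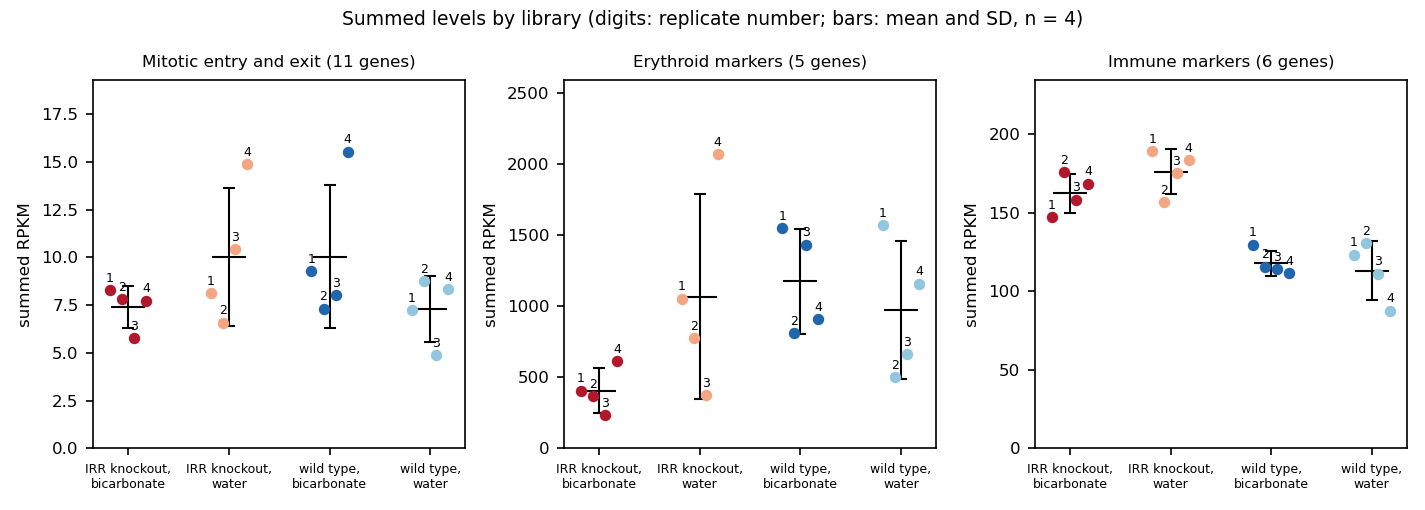
Summed RPKM per library of the 11 mitotic entry and exit genes, 5 erythroid markers and 6 immune markers, with replicate numbers beside the points and mean and SD as bars (n = 4). The mitotic sums of IRR-/- water replicate 4 (14.9 RPKM) and wild-type bicarbonate replicate 4 (15.5 RPKM) stand above the other 14 libraries, and the immune sums are higher in all IRR-/- libraries.

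The replication genes encode the MCM helicase (Mcm2 to Mcm7), its partner CDC45 and the clamp PCNA, and the nucleotide supply genes make deoxynucleotides. None of the 7 tested replication genes was called in any comparison. Pcna averaged 30.5 RPKM, Mcm7 averaged 12.0 RPKM and Mcm6 averaged 7.51 RPKM. Among the others Mcm4 averaged 4.11 RPKM, Mcm2 averaged 3.21 RPKM, Mcm3 averaged 1.83 RPKM, Cdc45 averaged 1.08 RPKM and Mcm5 averaged 0.224 RPKM and was listed at 0 in 4 libraries. So the 6 subunits of 1 helicase ring differed widely in RPKM. Mcm2 came nearest to the threshold, at 2.30, 2.64, 2.46 and 3.06 RPKM in IRR-/- mice on bicarbonate, against 3.43, 3.17, 4.86 and 2.95 RPKM in wild-type mice on bicarbonate (log2 difference -0.43 ± 0.15, adjusted p = 0.0536). In that group Pcna, Mcm2 and Mcm3 were each highest in wild-type bicarbonate replicate 3, the library that stood apart, with 43.7 RPKM for Pcna where the others had 27.7 to 28.4 RPKM.

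E2F sites were found in 4 of 7 windows of replication genes (57.1%), against 3.82% of windows of genes in the table, and in none of the 10 windows of mitotic genes. Mcm6 is shown as the window with the most of these matches (chr1:128359656-128359955, minus strand), 2 of which overlap, beside 2 CCAAT boxes.
Mcm6: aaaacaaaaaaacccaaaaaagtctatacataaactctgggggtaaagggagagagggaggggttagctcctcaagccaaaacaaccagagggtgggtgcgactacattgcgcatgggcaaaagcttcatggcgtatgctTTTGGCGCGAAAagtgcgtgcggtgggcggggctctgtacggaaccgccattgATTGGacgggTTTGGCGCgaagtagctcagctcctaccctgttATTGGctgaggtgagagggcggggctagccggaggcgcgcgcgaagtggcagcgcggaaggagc

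Of the nucleotide supply genes, Tyms (thymidylate synthase), Tk1 (thymidine kinase), Rrm1 and Rrm2 averaged 11.5, 7.78, 6.23 and 2.69 RPKM. Rrm2, the subunit of ribonucleotide reductase whose level follows the S phase, was lower in IRR-/- than in wild-type kidneys on bicarbonate. Its levels were 2.51, 1.78, 1.60 and 2.05 RPKM in IRR-/- mice on bicarbonate, against 3.64, 3.80, 3.07 and 3.73 RPKM in wild-type mice on bicarbonate. The groups did not overlap, and the log2 difference was -0.83 ± 0.27 (adjusted p = 0.0493). The value lay just under the threshold, and the call was lost in 12 of 17 alternatives, with adjusted p-values up to 0.124. Among them were leaving out any 1 of the 4 wild-type bicarbonate libraries or IRR-/- bicarbonate replicates 2, 3 or 4, with log2 differences of -0.89 to -0.73. On water Rrm2 overlapped between genotypes, and IRR-/- water replicate 4, the library with a high mitotic sum, was its highest at 4.74 RPKM.

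The clearest differences between genotypes were in G1 control: Cdk4 was lower and Cdkn1b was higher in IRR-/- kidneys on both drinks. Cdk4, the kinase that acts with D-type cyclins, had 34.8, 37.0, 36.6 and 34.5 RPKM in IRR-/- mice on bicarbonate, against 62.6, 73.2, 71.4 and 60.8 RPKM in wild-type mice on bicarbonate. On water it had 38.9, 33.5, 35.5 and 35.2 RPKM in IRR-/- mice, against 60.6, 60.1, 57.4 and 55.1 RPKM in wild-type mice. No IRR-/- library exceeded 38.9 RPKM and no wild-type library fell below 55.1 RPKM. The log2 differences were -0.90 ± 0.07 on bicarbonate (adjusted p = 1.02e-06) and -0.70 ± 0.07 on water (adjusted p = 7.23e-06), which are 0.536 and 0.614 times wild type.

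Cdkn1b, which encodes a CDK inhibitor that restrains entry into S phase, had 22.9, 19.9, 20.8 and 20.2 RPKM in IRR-/- mice on bicarbonate, against 13.1, 14.0, 13.3 and 14.8 RPKM in wild-type mice on bicarbonate. On water it had 18.3, 19.3, 19.2 and 18.3 RPKM in IRR-/- mice, against 12.5, 11.9, 13.4 and 9.57 RPKM in wild-type mice. All 8 IRR-/- libraries were above all 8 wild-type libraries. The log2 differences were 0.60 ± 0.09 on bicarbonate (adjusted p = 4.04e-04) and 0.67 ± 0.09 on water (adjusted p = 1.17e-04). Both genes kept both calls in all 17 alternatives. Neither was called after bicarbonate in either genotype or in the interaction.

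Cdk4 lies at chr10:127063534-127067920 and overlaps Tspan31 on the opposite strand. Tspan31 differed between genotypes by -0.41 ± 0.11 on bicarbonate (adjusted p = 0.0163) and -0.09 ± 0.11 on water (adjusted p = 0.624), log2 differences smaller in size than those of Cdk4. Cdkn1b lies at chr6:134920401-134925513 and overlaps no annotated gene. The promoter windows of both are given because these genes differed on both drinks. Neither holds a cell-cycle homology match or an E2F site, as marked before, and Cdkn1b holds 3 CCAAT boxes (Cdk4, chr10:127063285-127063584; Cdkn1b, chr6:134920151-134920450, both on the plus strand).
Cdk4: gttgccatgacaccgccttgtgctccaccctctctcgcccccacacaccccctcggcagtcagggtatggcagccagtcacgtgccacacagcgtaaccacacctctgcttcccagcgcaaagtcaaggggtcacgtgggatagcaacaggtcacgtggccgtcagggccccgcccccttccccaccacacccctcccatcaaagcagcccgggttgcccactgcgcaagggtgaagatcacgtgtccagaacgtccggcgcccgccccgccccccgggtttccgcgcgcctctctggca
Cdkn1b: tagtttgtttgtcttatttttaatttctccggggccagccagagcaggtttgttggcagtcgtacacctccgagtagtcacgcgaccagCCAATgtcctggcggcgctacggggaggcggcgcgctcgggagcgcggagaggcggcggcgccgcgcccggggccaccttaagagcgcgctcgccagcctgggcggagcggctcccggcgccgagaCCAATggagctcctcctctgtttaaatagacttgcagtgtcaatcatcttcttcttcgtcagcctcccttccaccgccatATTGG

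Cdk2, the kinase of the step into S phase, was lower in IRR-/- than in wild-type kidneys on bicarbonate, at 4.20, 4.67, 5.48 and 4.94 RPKM in IRR-/- mice, against 6.81, 6.94, 6.66 and 5.53 RPKM in wild-type mice. The log2 difference was -0.42 ± 0.13 (adjusted p = 0.0325), and the groups came within 0.1 RPKM of each other without overlap. The call was lost in 7 of 17 alternatives, among them without wild-type bicarbonate replicate 1, 2 or 3 and without IRR-/- bicarbonate replicate 1, 2 or 4, which gave log2 differences of -0.43 to -0.36 and adjusted p-values of 0.0599 to 0.0857. On water the difference was -0.11 ± 0.13 (adjusted p = 0.597).

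E2f6, a repressor of the E2F family, was listed at 0 in most IRR-/- libraries. It was 2.81, 0, 0 and 0 RPKM in IRR-/- mice on bicarbonate and 0, 0, 0 and 1.94 RPKM in IRR-/- mice on water. Wild-type mice had 2.96, 2.07, 1.93 and 1.74 RPKM on bicarbonate and 2.01, 3.02, 1.77 and 3.94 RPKM on water. The 2 IRR-/- libraries with a value lay within the wild-type range. An exact 0 can be a failed estimate between transcripts, so no fold is given. By limma, E2f6 was lower in IRR-/- kidneys on bicarbonate (adjusted p = 0.0489) and on water (adjusted p = 0.0257). The call on bicarbonate was lost in 13 of 17 alternatives, including each of the 4 wild-type bicarbonate libraries left out and IRR-/- bicarbonate replicates 2, 3 or 4 (adjusted p-values of 0.0772 to 0.131). The call on water was lost without wild-type water replicate 2 or 4 or without IRR-/- water replicate 1, 2 or 3 (0.0586 to 0.0724).

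The remaining G1 genes were called in no comparison. Ccnd1 and Ccnd3 averaged 62.0 and 53.9 RPKM, Ccnd2 averaged 6.01 RPKM, Cdk6 averaged 3.15 RPKM, the retinoblastoma gene Rb1 averaged 18.3 RPKM and E2f1 averaged 0.754 RPKM. Thus the D-type cyclins that bind CDK4 did not pass while Cdk4 did: Ccnd1 had log2 differences between genotypes of -0.02 ± 0.16 on bicarbonate and 0.38 ± 0.16 on water (adjusted p = 0.942 and 0.110), and Ccnd3 of -0.26 ± 0.16 and -0.09 ± 0.16 (adjusted p = 0.279 and 0.729).

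**Figure D4:**
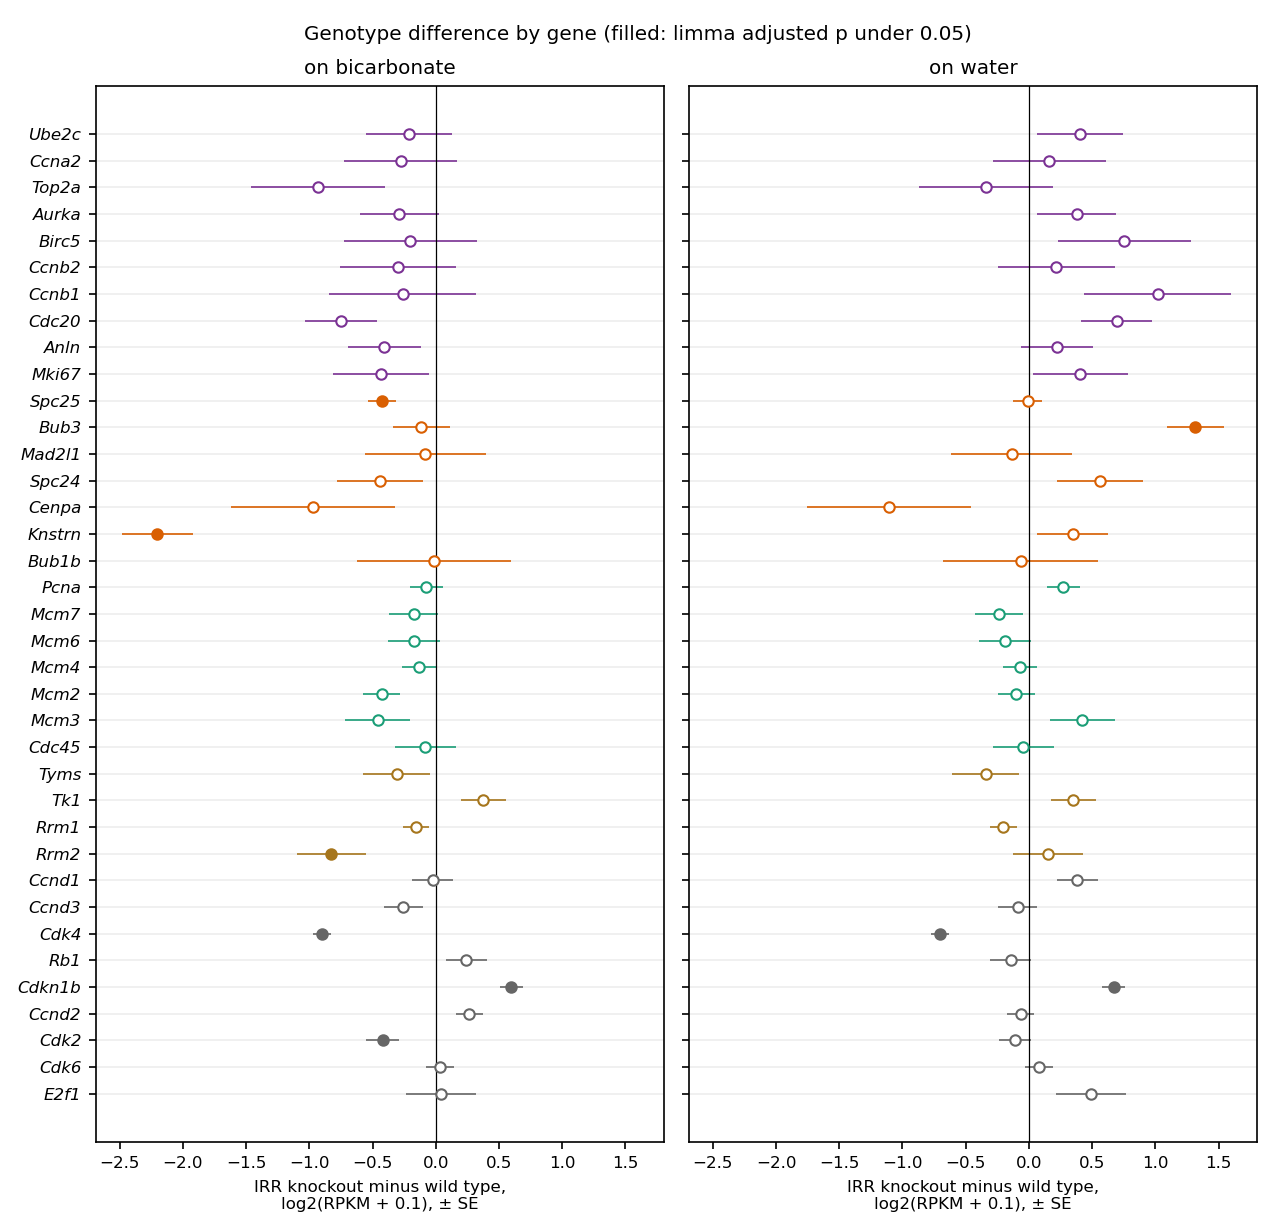
Log2 difference of RPKM + 0.1, IRR-/- minus wild type, ± SE for 37 tested genes (E2f6, with exact zeros, is left out) on bicarbonate (left) and on water (right); colours mark the roles and filled points passed limma at an adjusted p under 0.05. Cdk4 and Cdkn1b are filled in both panels, Bub3 on water, and Spc25, Knstrn, Cdk2 and Rrm2 on bicarbonate.

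Counted over the 38 tested genes, 7 differed between genotypes on bicarbonate, 1 higher (Cdkn1b) and 6 lower (Spc25, Knstrn, Cdk2, Cdk4, Rrm2 and E2f6). This share of 18.4% equals that of all genes tested, of which 18.4% were called (9.03% higher, 9.36% lower). At an unadjusted p under 0.05 there were 10, beside 31.4% of all genes, and 8 genes did not overlap between genotypes (2 higher, 6 lower), beside 22.8% of all genes. The count was 4 when the length and GC trend was removed or when wild-type bicarbonate replicate 1, 2 or 3 or IRR-/- bicarbonate replicate 2 was left out. On water 4 were called, 2 higher (Bub3 and Cdkn1b) and 2 lower (Cdk4 and E2f6), a share of 10.5% beside 21.9% of all genes (10.1% higher, 11.8% lower). Here 6 had an unadjusted p under 0.05, beside 34.3% of all genes, and 4 did not overlap (3 higher, 1 lower), beside 23.8% of all genes. The median log2 difference was -0.26 on bicarbonate (6 above 0, 32 below) and 0.12 on water (20 above, 18 below), beside -0.02 and -0.05 over all genes.

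After bicarbonate, 1 of the 38 genes was called in IRR-/- mice and 0 in wild-type mice, where 0.139% of all genes were called by limma (0.0386% higher). At an unadjusted p under 0.05 there were 2 in IRR-/- mice (Spc25 and Knstrn, both lower), beside 7.99% of all genes, and 10 in wild-type mice (7 higher, 3 lower), beside 12% of all genes. In wild-type mice 5 genes did not overlap between drinks, all higher on bicarbonate (Cdc20, Bub3, Knstrn, Cdk4 and Anln), beside 5.86% of all genes in either direction and 2.54% higher. In IRR-/- mice 3 did not overlap, beside 5.66% of all genes: Cdkn1b was the 1 higher (2.72% of all genes) and Spc25 and Knstrn the 2 lower (2.94% of all genes). The median log2 difference was -0.12 in IRR-/- mice (11 above 0) and 0.18 in wild-type mice (25 above 0). In the interaction test 0 of 38 were called by limma, beside 0.0155% of all genes, and 7 had an unadjusted p under 0.05 (1 higher, 6 lower), beside 8.19% of all genes.

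**Figure D5:**
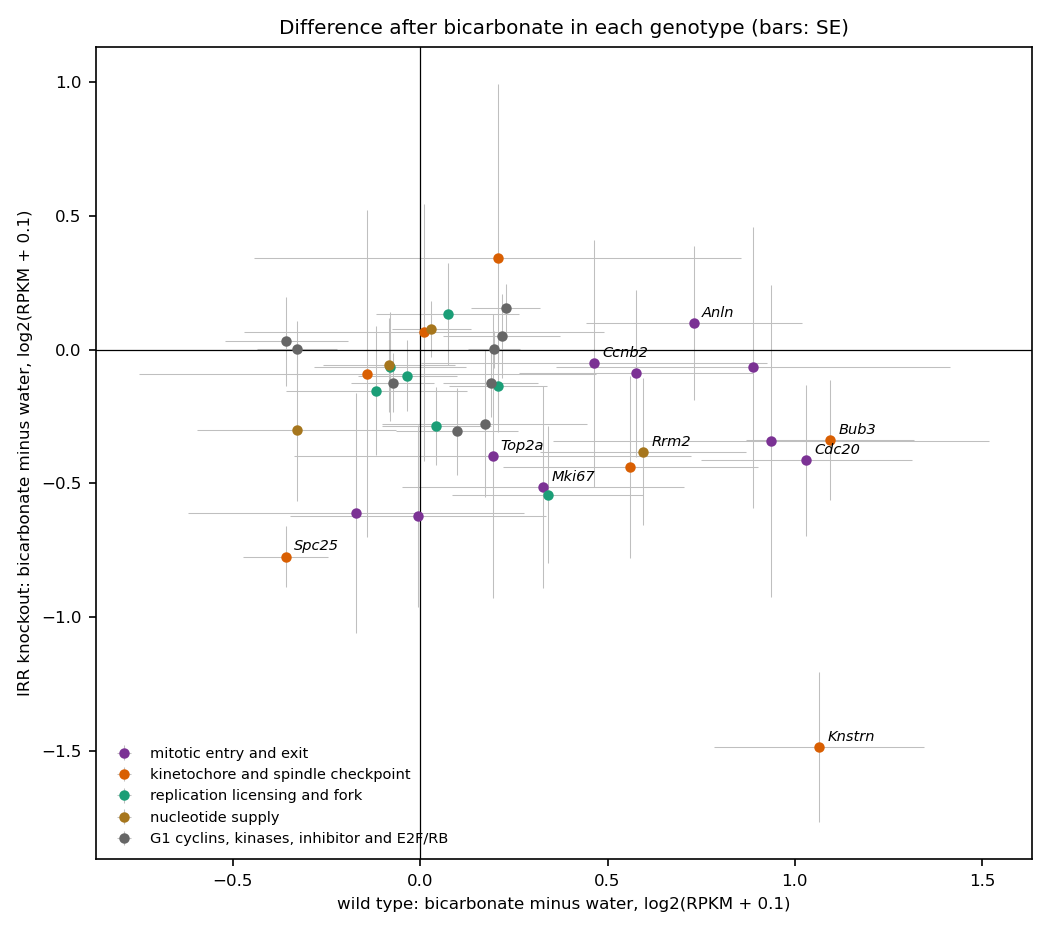
Log2 difference of RPKM + 0.1 after bicarbonate in IRR-/- mice (y axis) against that in wild-type mice (x axis) for 37 tested genes, coloured by role, with SE bars; E2f6 is left out. Knstrn is the lowest point (1.06 in wild type, -1.48 in IRR-/-), and Spc25 is below 0 in both genotypes. Other genes, among them Bub3 and Cdc20, are also above 0 in wild type and below 0 in IRR-/-.

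The wider cell cycle was read from lists of genes outside the 46. Of 58 further proliferation genes, 45 were analysed and 40 tested. On bicarbonate 0 were higher and 1 lower in IRR-/- kidneys, Hmmr, a spindle protein gene, with a log2 difference of -1.11 ± 0.34 (adjusted p = 0.0349). That is 2.5% of the 40, beside 18.4% of all genes. On water 5 were higher and 0 lower: Mcm10, a replication factor (1.40 ± 0.32), the condensin gene Ncapd2 (1.16 ± 0.30), and, named after their values were seen, Cks1b, Cks2 and Stmn1 (1.01, 0.68 and 0.43). That is 12.5% of the 40, beside 21.9% of all genes. Of the 11 tested kinetochore partners only Zw10 was called, lower in IRR-/- kidneys by log2 differences of -0.34 ± 0.11 on bicarbonate (adjusted p = 0.0484) and -0.45 ± 0.11 on water (adjusted p = 0.00998). This is 9.09% of the 11 on each drink, beside 18.4% of all genes on bicarbonate and 21.9% on water. None of the genes of these lists was called by limma after bicarbonate in either genotype or in the interaction.

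Other inhibitors and arrest genes did not move together between genotypes. Rbl2, Lin37 and Trp53 were called higher in IRR-/- kidneys on both drinks. Of 26 listed, 19 were analysed and tested. On bicarbonate 3 were higher and 1 lower in IRR-/- kidneys, and on water 4 were higher and 0 lower. That is 21.1% of the 19 on each drink, beside 18.4% of all genes on bicarbonate and 21.9% on water. The list medians were 0.05 and -0.08. On bicarbonate 10 of the 19 had a log2 difference above 0 and 9 below, and on water 8 above and 11 below. Rbl2, a retinoblastoma-like protein of the complex that represses cell cycle genes in resting cells, averaged 46.5 ± 4.11 RPKM in IRR-/- mice, against 13.9 ± 1.95 RPKM in wild-type mice on bicarbonate (SD, n = 4 each), a log2 difference of 1.74 ± 0.15 (adjusted p = 3.18e-06). On water it averaged 38.8 ± 3.61 RPKM in IRR-/- mice, against 16.9 ± 4.52 RPKM in wild-type mice (1.23 ± 0.15, adjusted p = 5.40e-05). Lin37, a subunit of the same complex, was higher by 0.92 ± 0.14 on bicarbonate and 0.81 ± 0.14 on water, and Trp53 by 0.31 ± 0.09 and 0.40 ± 0.09. The others, named after their values were seen, were Mdm2, lower on bicarbonate (-0.32), and E2f4, higher on water (0.24).

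Immune markers did not move together between genotypes: on each drink 3 of the 6 analysed had a log2 difference above 0 and 3 below. The sum of these 6, of 10 listed, was 147 to 176 RPKM in IRR-/- mice on bicarbonate and 157 to 189 RPKM on water, against 112 to 130 RPKM in wild-type mice on bicarbonate and 87.7 to 131 RPKM on water. By the test 1 of the 6 was higher in IRR-/- kidneys on bicarbonate and 2 on water, beside 18.4% and 21.9% of all genes called. Most of the sum came from the MHC class II gene H2-Ab1 and from Cd74, the invariant chain. Cd74 averaged 93.8 and 102 RPKM in IRR-/- mice on bicarbonate and on water, and 74.2 and 69.0 RPKM in the wild-type groups on bicarbonate and on water. H2-Ab1 averaged 48.8 and 54.6 RPKM in IRR-/- mice, and 24.0 and 23.0 RPKM in the wild-type groups, in the same order of drinks. Cd68, a macrophage marker, was also higher in IRR-/- mice, averaging 3.23 and 3.04 RPKM on bicarbonate and on water. The wild-type groups averaged 2.28 and 2.17 RPKM of Cd68 in the same order. The 3 markers below 0 were Ptprc, of leukocytes in general, and Adgre1 and Csf1r, which are macrophage markers as Cd68 is. Ptprc averaged 2.62 and 2.83 RPKM in IRR-/- mice on bicarbonate and on water, and 3.04 and 3.33 RPKM in the wild-type groups on bicarbonate and on water. The part of immune cells in the genotype differences was not tested.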

How the data were processed

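Kidney RNA of 16 mice in 4 groups of 4, grouped by the genotype and treatment labels, was sequenced with 1 library per animal. The authors deposited 1 table of RPKM per gene. Per the submitters' processing notes the tools included Salmon 1.5.2 and edgeR 3.34.0, with no role stated, and no source used here names the annotation. Symbols and positions came from GENCODE M21 (GRCm38). The processing notes do not settle the assembly behind the deposited values, which may differ from this one. No counts are given, so depth is unknown.

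The 12943 genes that reached 0.5 RPKM in 4 or more of 16 libraries were tested with limma 3.58.1 (R 4.3.3) on log2(RPKM + 0.1), with trended and robust variance, in 1 fit of the 4 group means. P-values are two-sided and Benjamini-Hochberg adjusted over all genes tested, with a threshold of 0.05. Log2 differences on this scale understate changes of low genes. The fit was tested on simulated data.

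The members and gene lists were chosen with earlier results of these data known. All analysed members are named, and outside them only chromosomal neighbours and list genes that were called or highest. Other settings were the pseudocount, filter, scaling, variance model, block, a length and GC correction, the groups fitted and each replicate left out. Leaving out both libraries with the highest mitotic sums was added after seeing the data.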

Additional observations from a re-analysis of the deposited data

Results flagged for a closer look

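For Knstrn, every IRR-/- bicarbonate library lay below, and every wild-type bicarbonate library above, those of the same genotype on water, so the measured differences had opposite signs. Neither response passed its test: the log2 difference was -1.48 in IRR-/- mice (limma adjusted p = 0.152) and 1.06 in wild-type mice (0.134). The difference between these, -2.55, did not pass either (limma adjusted p = 0.0520). Between genotypes on bicarbonate Knstrn did pass (-2.20, limma adjusted p = 9.55e-05).

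In 24 of 160 combinations of a gene and a group of 4, the highest or lowest library stood far from the other 3. The rule flags about 1 in 20 groups of normally distributed values, which would be about 8. It was applied to RPKM without logs, some of them 0, so that figure need not hold here. In IRR-/- mice on bicarbonate the outlying values were 1.54 RPKM for Ccnb1 in replicate 1, 2.81 RPKM for E2f6 in replicate 1, 1.92 RPKM for Mcm3, 0.744 RPKM for Mcm5, 9.54 RPKM for Mad2l1, 0.448 RPKM for Knstrn and 24.5 RPKM for Rb1, all in replicate 2, and 15.4 RPKM for Mcm7, 2.23 RPKM for Bub1b and a low 0.437 RPKM for Anln in replicate 3. In IRR-/- mice on water they were 1.23 RPKM for Ccnb1, 1.90 RPKM for Ccnb2, 1.94 RPKM for E2f6 and a low 5.57 RPKM for Ccnd2 in replicate 4, and 1.25 RPKM for Bub1b and a low 0.589 RPKM for Knstrn in replicate 1. In wild-type mice on bicarbonate they were 43.7 RPKM for Pcna and 3.33 RPKM for Mcm3 in replicate 3, 1.80 RPKM for Cdc20 and 2.25 RPKM for Knstrn in replicate 4, 11.5 RPKM for Mad2l1 and a low 0.345 RPKM for E2f1 in replicate 1, and 16.7 RPKM for Mcm7 in replicate 2. In wild-type mice on water Mcm5 was listed at 0 in replicate 1.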

How the results depend on the processing

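Cdk4 and Cdkn1b on both drinks, Bub3 on water and Knstrn on bicarbonate kept their genotype calls in all 17 alternatives. The count of members called after bicarbonate in IRR-/- mice, 1 (Spc25), was 0 with the replicate block, without trended and robust variance and after correction for length and GC, and 0 to 1 with a replicate left out. After bicarbonate in wild-type mice it was 0 to 1 with a replicate left out. For genotype on bicarbonate it was 4 after correction for length and GC, 5 with the replicate block, 4 to 6 with a replicate left out and 7 without both libraries of the highest mitotic sums, and for genotype on water 3 to 4 with a replicate left out. For the interaction it was 1 (Knstrn) with no filter, with median-of-ratios or quantile scaling, without trended and robust variance or after correction for length and GC, and 0 to 1 with a replicate left out. The log2 difference of Spc25 between genotypes on water (-0.01) was 0.024 with median-of-ratios scaling, 0.13 after correction for length and GC and 0.02 without both libraries of the highest mitotic sums. With a replicate left out it was -0.10 to 0.067, above 0 without IRR-/- water replicate 4 or wild-type water replicate 3 or 4. That of Bub3 on bicarbonate (-0.11) was -0.25 to 0.10 with a replicate left out, above 0 without wild-type or IRR-/- bicarbonate replicate 3. The cause was not tested. The labels do not say whether replicate numbers pair the animals. Deviations of libraries with the same replicate number had correlations of -0.05 to 0.10, which cannot settle whether animals were paired. The number of reads behind the low members is unknown, which limits how far their differences can be read.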
